A study of Homo sapiens with 12 samples.

Results

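The 8 genes described here encode the RUNX transcription factors RUNX1, RUNX2 and RUNX3, their shared partner CBFB, the ETS repressor ETV6, and the ETO corepressors CBFA2T2, CBFA2T3 (ETO2) and RUNX1T1 (ETO). They were taken by gene symbol from a table of 26210 genes, with no use of their values. In total, 7 of the 8 passed the low-value filter (an FPKM of at least 1 in 2 or more libraries), as did 14679 genes of the table, and RUNX1T1 did not. Total RNA was sequenced from 12 libraries in 6 groups of 2. The classical Hodgkin lymphoma (cHL) cell lines KM-H2, L1236 and L428, which model Hodgkin/Reed-Sternberg (HRS) cells, and the control cell lines Namalwa (Burkitt lymphoma) and Reh (pro-B lymphoblastic leukaemia) were untreated, and a further group was Reh treated with the phorbol ester PMA at 2 ng/ml. The length of that treatment is not stated in the labels. Every group is 1 established cell line. Reh carries an ETV6-RUNX1 fusion, and gene-level values for ETV6 and RUNX1 do not separate reads of the fusion from those of any intact copy.

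RUNX proteins bind DNA through a Runt domain, and binding is strengthened by CBFB, which does not contact DNA itself. RUNX1 is required for blood stem cells and B-cell precursors, RUNX2 is the main regulator of bone formation, and RUNX3 acts in T cells and in activated B cells. ETV6 is an ETS-family repressor, and the ETO proteins do not bind DNA alone but bring NCoR and histone deacetylases to factors such as RUNX1 and the TAL1 or LYL1 complexes. In the ETV6-RUNX1 fusion, a part of ETV6 is joined to nearly the whole of RUNX1. The study considered CBFA2T3 as a repressor whose loss in HRS cells accompanies activation of long terminal repeats (LTRs).

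The libraries did not all have the same composition. L1236 1, L428 1, Reh_PMA 0 and Reh_PMA 1 (libraries are named by group and column suffix) were listed at 0 for the non-coding RNA BCYRN1, and 82 ribosomal protein genes made up 5.81% to 10.1% of their summed FPKM, against 16.0% to 22.5% in the other 8 libraries. Both PMA libraries and neither untreated Reh library were among these 4, so PMA differences of the tested genes among the 8 and of the genes named from the lists are given also from a fit with a term for them, which rests on the L1236 and L428 pairs. For a gene at or near 0 in L1236 and L428 the term is near 0, so it cannot adjust the PMA difference of that gene. That term, and the setting that leaves out L1236 1 and L428 1 together, were chosen after seeing the data. Their part in the results was not tested further. FPKM does not give the number of reads, so the depth is unknown. Relative to Reh 0, the FPKM worth of 1 read ranged from 0.430 in L1236 1 to 2.59 in KM-H2 0. An exact 0 can be a failed estimate, although none of 16 housekeeping genes was at 0 in any library. The labelled cell types were checked by markers. Summed FPKM of 5 B-lineage genes was 818 to 1364 in Namalwa, Reh and Reh_PMA and 0.773 to 34.7 in the cHL cell lines, MS4A1 was at 0 in all 6 cHL libraries, and KM-H2 stood apart from the other 5 groups for the T-cell genes CD3D and CD3E (summed FPKM 13.7 to 22.5, at most 0.123 elsewhere) and for 3 monocyte genes (5.16 to 7.18, mostly CD14, at most 0.899 elsewhere), whose part in the results was not tested. Of 5 precursor B-cell genes, DNTT was at 0 outside Reh and Reh_PMA and VPREB1 was at 0 in Reh and Reh_PMA. Their summed FPKM was 1077 to 1159 in Reh, 128 to 134 in Reh_PMA, 172 to 186 in Namalwa and at most 0.969 in the cHL cell lines. In bulk RNA, fewer expressing cells and less RNA per cell cannot be told apart.

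Promoter sequences are shown for RUNX2 and RUNX3, whose levels separated the lines, and for CBFA2T3, which the study singled out. All come from RefSeq (GRCh38.p14) and run from 250 bases before to 30 bases after a start site, on the strand of the gene. For RUNX2 and RUNX3 the more upstream of the starts in the RefSeq table is shown, with each match to the RUNX motif TGTGGT (here read from the other strand as ACCACA) in capitals. For CBFA2T3, capitals mark the match to the E-box CANNTG, the element bound by TCF3 and its partners.
RUNX2, chr6:45328080-45328359, plus strand: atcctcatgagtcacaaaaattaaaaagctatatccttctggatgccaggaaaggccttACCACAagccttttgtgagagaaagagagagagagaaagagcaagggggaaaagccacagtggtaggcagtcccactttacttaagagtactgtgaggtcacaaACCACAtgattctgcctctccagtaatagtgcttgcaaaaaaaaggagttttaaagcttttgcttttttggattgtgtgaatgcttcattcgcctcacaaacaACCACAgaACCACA
RUNX3, chr1:24964981-24965260, minus strand: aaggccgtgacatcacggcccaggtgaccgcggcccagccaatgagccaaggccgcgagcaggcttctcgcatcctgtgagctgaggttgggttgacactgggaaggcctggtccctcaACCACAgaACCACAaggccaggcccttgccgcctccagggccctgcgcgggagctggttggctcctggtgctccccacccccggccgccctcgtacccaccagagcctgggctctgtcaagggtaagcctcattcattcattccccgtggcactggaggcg
CBFA2T3, chr16:88941321-88941600, minus strand: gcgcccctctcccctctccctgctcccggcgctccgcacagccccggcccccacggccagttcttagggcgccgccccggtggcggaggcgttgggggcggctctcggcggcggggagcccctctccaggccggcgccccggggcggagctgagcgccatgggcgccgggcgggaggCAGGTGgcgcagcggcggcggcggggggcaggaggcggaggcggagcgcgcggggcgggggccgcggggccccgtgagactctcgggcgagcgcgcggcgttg
The RUNX2 window held 4 RUNX motifs, beginning 191 and 87 bases before and 16 and 24 bases after the start. The RUNX3 window held 2, beginning 131 and 123 bases before it. Both windows contained the run CAACCACAGAACCACA, the longest run that RUNX2 and RUNX3 windows shared, which was noticed after the sequences had been read and which these 2 of 35116 promoter windows of this length (0.0057%) held on either strand. At least 1 RUNX motif was found in 12.3% of these windows, at least 2 in 1.16% and at least 4 in 0.0142%. CBFA2T3 had no RUNX motif and 1 E-box, which began 73 bases before the start, and an E-box was present in 66.2% of windows. The windows at the other starts of RUNX2 and RUNX3, and those of RUNX1, ETV6 and CBFA2T2, held no RUNX motif, while CBFB and RUNX1T1 were not examined. Any further starts of RUNX1, ETV6, CBFA2T2 and CBFA2T3 were not in the RefSeq table. For these genes the absence of a motif therefore holds only for the windows read. A match is a description of letters, and the libraries do not show which start was used.

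RUNX1 was expressed at its highest level in Reh, the line with the fusion. Its gene lies at chr21:36160098-37376965 (GRCh37, minus strand). The FPKM was 26.1 and 15.4 in Reh, 23.0 and 25.3 in Reh_PMA, 8.05 and 3.28 in Namalwa, 11.1 and 8.78 in L428, 5.09 and 2.65 in KM-H2 and 2.20 and 1.03 in L1236. All 4 Reh and Reh_PMA libraries were above the other 8, while the L428 libraries were above those of Namalwa. The mean of the cHL cell lines was below that of the control cell lines by a log2 difference of -1.17 (SE 0.27, limma adjusted p = 0.00543), on the log2(FPKM + 1) scale used for all differences here. This difference rests mostly on Reh. Compared with Namalwa alone, L1236 was lower (-1.29, limma adjusted p = 0.0382). KM-H2 (-0.40, limma adjusted p = 0.501) and L428 (0.81, limma adjusted p = 0.163) were not distinguishable from Namalwa. Within the controls, Namalwa was below Reh by -1.76 (SE 0.42, limma adjusted p = 0.0141), a call lost without Namalwa 1 (-1.22) or without Reh 0 (-1.40), and also without the low-value filter (limma adjusted p = 0.0514), with libraries scaled to equal totals (limma adjusted p = 0.0826) and in a fit of Namalwa and Reh alone (limma adjusted p = 0.116). L1236 (-2.17, SE 0.37) and KM-H2 (-1.28, SE 0.37) were below the controls, the latter no longer called without KM-H2 1 (-0.91) or Reh 0 (-1.10), nor without the filter, with equal totals or in a fit of KM-H2 and the controls alone (limma adjusted p = 0.0559, 0.0906 and 0.0751). L428 differed from them by -0.07, with a 95% confidence interval of -0.91 to 0.76. In Reh_PMA the difference from Reh was 0.25 (SE 0.42, limma adjusted p = 0.731), or 0.74 (limma adjusted p = 0.408) with the term for the 4 libraries.

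RUNX2 was high in L428 and low or absent in the controls. The gene lies at chr6:45295894-45632086 (GRCh37, plus strand). Its FPKM was 52.3 and 95.1 in L428, 4.74 and 2.89 in L1236 and 5.11 and 2.24 in KM-H2, but 0.396 and 0 in Namalwa, 0.348 and 0 in Reh and 0.0766 and 0.145 in Reh_PMA. All 6 cHL libraries (lowest 2.24, median 4.93, highest 95.1) were above all 4 control libraries. The difference between cHL and control cell lines was 3.29 (SE 0.25), and each line exceeded the controls, L428 by 5.93 (SE 0.34), L1236 by 2.01 (SE 0.34) and KM-H2 by 1.93 (SE 0.34). As RUNX2 passed the low-value filter through the cHL cell lines alone, these differences are descriptions. The mean FPKM of L428 was 19.3-fold that of L1236 and 20.0-fold that of KM-H2. RUNX2 was at trace level in Reh_PMA too (difference -0.06, SE 0.39, limma adjusted p = 0.979, or -0.21 with the term).

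RUNX3 had a different order, with L1236 highest and Reh at or near 0. The gene lies at chr1:25226002-25291612 (GRCh37, minus strand). The FPKM was 30.8 and 16.4 in L1236, 16.1 and 10.9 in KM-H2, 5.63 and 6.47 in L428, 6.01 and 3.53 in Namalwa, 0.0746 and 0 in Reh and 0.0158 and 0.0298 in Reh_PMA. The ranges of L428 and Namalwa overlapped, and all 8 libraries of the cHL lines and Namalwa were above those of Reh. The cHL cell lines exceeded the controls by 2.46 (SE 0.21, limma adjusted p = 1.20e-05), and Namalwa exceeded Reh by 2.44 (SE 0.33, limma adjusted p = 0.000502). The 3 cHL lines each exceeded the control mean, by 3.28 (SE 0.28) in L1236, 2.56 (SE 0.28) in KM-H2 and 1.54 (SE 0.28) in L428, but L428 was not distinguishable from Namalwa alone (0.32, SE 0.33, limma adjusted p = 0.482). The difference between Reh_PMA and Reh was -0.02 (SE 0.33, limma adjusted p = 1), or 0.33 (limma adjusted p = 0.653) with the term.

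**Figure D1:**
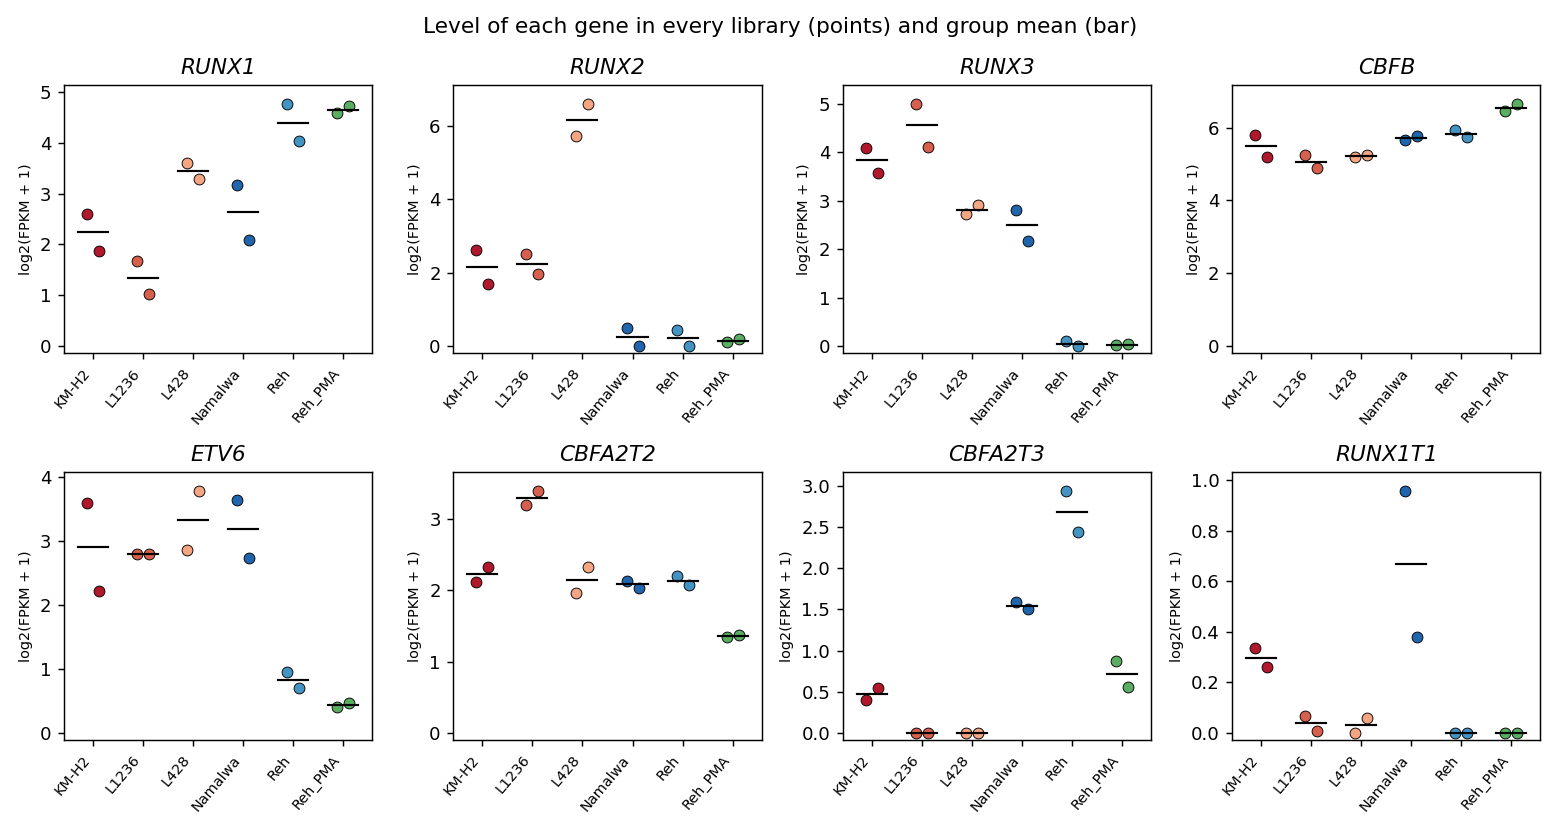
Level of each gene as log2(FPKM + 1) (vertical axis, from 0, own scale in each panel) in the 6 groups, with 1 point for each of the 12 libraries and a bar at the group mean. RUNX2 reaches 52.3 and 95.1 FPKM in L428 and CBFA2T3 is at 0 in the 4 libraries of L1236 and L428.

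As FPKM is a level per transcript length, the family can also be summed. RUNX1 made up 99.2% ± 1.13 (SD, n = 2) of the summed RUNX FPKM in Reh and 99.5% ± 0.201 in Reh_PMA. RUNX2 was 81.0% ± 7.36 of it in L428, and RUNX3 was 81.1% ± 0.642 in L1236 and 65.2% ± 5.56 in KM-H2. Namalwa was divided between RUNX1 (51.9% ± 5.31) and RUNX3 (46.7% ± 7.25). The sum itself was 89.6 ± 29.2 FPKM in L428, 29.0 ± 12.3 in L1236, 24.3 ± 1.70 in Reh_PMA, 21.1 ± 7.40 in KM-H2, 20.9 ± 7.88 in Reh and 10.6 ± 5.41 in Namalwa. L428 was above the other groups in both libraries, while the ranges of KM-H2, L1236 and Reh overlapped.

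**Figure D2:**
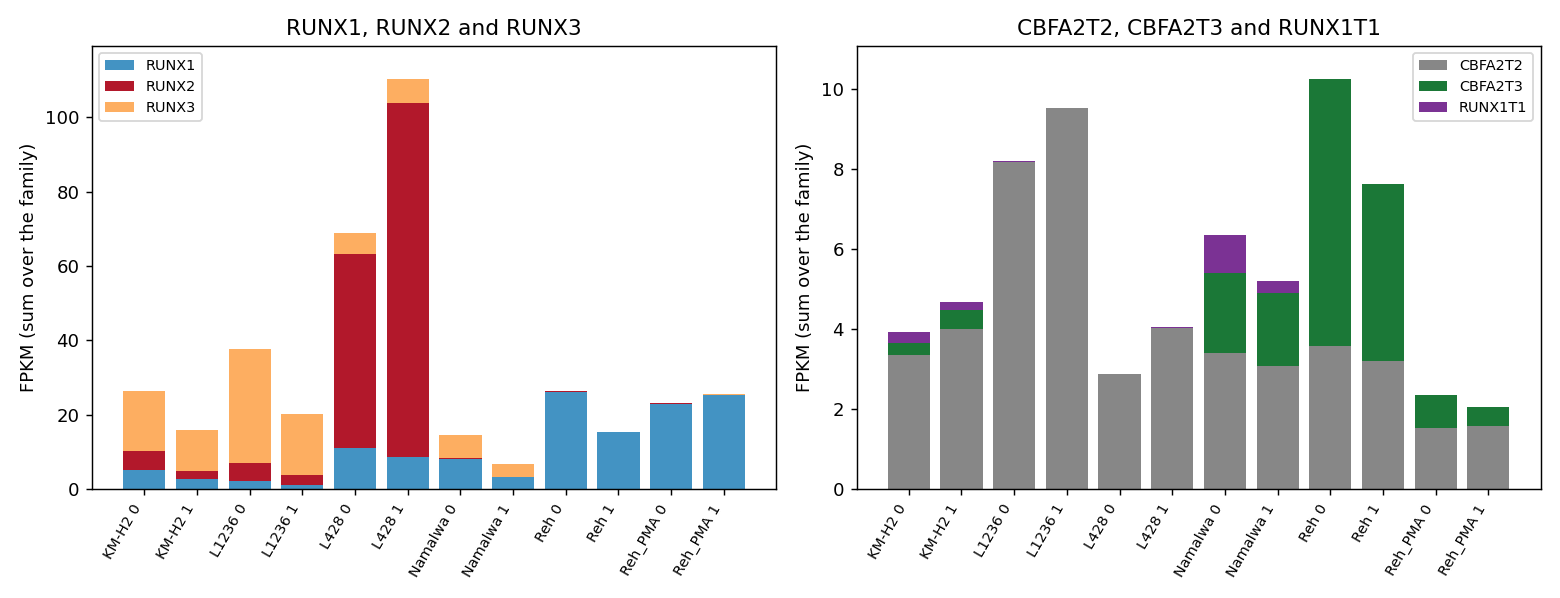
Stacked FPKM of the RUNX genes (left) and the ETO genes (right) in each of the 12 libraries, 1 bar a library. RUNX1 fills the bars of Reh and Reh_PMA, RUNX2 is 81.0% of L428 and RUNX3 is 81.1% of L1236, and CBFA2T3 is 61.5% of the ETO sum in Reh and 0 in L1236 and L428.

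CBFB, the common partner of the RUNX proteins, was expressed in all libraries (chr16:67062887-67134961, GRCh37, plus strand). Its FPKM was 54.5 and 35.7 in KM-H2, 36.9 and 28.7 in L1236, 35.8 and 36.9 in L428, 49.4 and 53.4 in Namalwa, 59.8 and 52.8 in Reh and 86.8 and 99.0 in Reh_PMA. Both PMA libraries were the highest of all, and KM-H2 0 lay among the controls. CBFB was lower in the cHL cell lines by -0.51 (SE 0.15, limma adjusted p = 0.0160), a call lost without Namalwa 1 (-0.49), without Reh 0 (-0.47) and without L1236 1 and L428 1 together (-0.46), and with equal totals (-0.57, limma adjusted p = 0.105). After PMA it was higher by 0.71 (SE 0.23, limma adjusted p = 0.0428), and by 0.87 (limma adjusted p = 0.101) with the term for the 4 libraries. That call was also lost when any 1 library of Reh, Reh_PMA, L428 or Namalwa was left out (0.62 to 0.80), without L1236 1 and L428 1 together (limma adjusted p = 0.0583), without the filter (limma adjusted p = 0.0650) and with equal totals (limma adjusted p = 0.199). The ratio of CBFB to the summed RUNX FPKM was lowest in L428 (0.520 and 0.334) and was 3.42 and 7.85 in Namalwa, 2.26 and 3.44 in Reh and 3.76 and 3.89 in Reh_PMA.

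ETV6, the fusion partner of RUNX1 in Reh, was low in Reh and Reh_PMA (chr12:11802608-12048311, GRCh37, plus strand). The FPKM was 0.930 and 0.621 in Reh and 0.323 and 0.389 in Reh_PMA, against 11.4 and 5.63 in Namalwa, 11.1 and 3.64 in KM-H2, 5.98 and 5.97 in L1236 and 6.29 and 12.8 in L428. All 4 libraries of Reh and Reh_PMA were below the other 8. Among the groups of those 8, only the ranges of L1236 and L428 did not overlap. The mean of Namalwa was 11.0-fold that of Reh (log2 difference 2.36, SE 0.48, limma adjusted p = 0.00571), although without Namalwa 0 the difference was 1.91 (limma adjusted p = 0.0525). The cHL cell lines exceeded the control mean by 1.01 (SE 0.31, limma adjusted p = 0.0204), and their libraries overlapped with those of Namalwa. This call was lost without Namalwa 1 (0.78), without Reh 1 (0.94) and with the term for the 4 libraries (0.85, limma adjusted p = 0.0632). It was lost as well without L1236 1 and L428 1 together (0.85, limma adjusted p = 0.0973), without the filter (limma adjusted p = 0.0647) and with equal totals (0.96, limma adjusted p = 0.0742). The PMA libraries were both below the untreated ones, but by a difference that missed the threshold (-0.38, SE 0.48, limma adjusted p = 0.612), also with the term (-0.84, limma adjusted p = 0.411).

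CBFA2T3, the ETO corepressor of haematopoietic cells, was present in both controls, lower after PMA and low or listed at 0 in the cHL cell lines (chr16:88941266-89043615, GRCh37, minus strand). Its FPKM was 6.68 and 4.43 in Reh, 2.02 and 1.83 in Namalwa, 0.825 and 0.475 in Reh_PMA, 0.315 and 0.457 in KM-H2, and 0 in all 4 libraries of L1236 and L428. All 6 cHL libraries were below all 4 control libraries. The difference between cHL and control cell lines was -1.96 (SE 0.12), with -2.12 (SE 0.16) for both L1236 and L428 and -1.65 (SE 0.16) for KM-H2. As CBFA2T3 passed the low-value filter through the controls alone, these differences are descriptions. The controls differed as well, with a Reh mean 2.89-fold that of Namalwa (Namalwa minus Reh -1.14, SE 0.19, limma adjusted p = 0.00179), a call lost in a fit of these 2 groups alone (limma adjusted p = 0.0561).

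Treatment of Reh with PMA was accompanied by an 8.54-fold lower mean FPKM of CBFA2T3. The difference was -1.98 (SE 0.19, limma adjusted p = 0.000122). With the term for the 4 libraries it was -1.98 as well (limma adjusted p = 0.00285). That term rests on the L1236 and L428 pairs, where CBFA2T3 was at 0 throughout, so it could not move this difference. Leaving out 1 library at a time gave -2.23 to -1.73, all called. In the same comparison 3 of 5 precursor B-cell genes were lower (RAG1 -5.53, MME -3.57, IGLL1 -3.20) and none higher, and their part in the PMA results was not tested. The count was the same with the term. However, the 5 genes summed to at most 0.969 FPKM in L1236 and L428, so the term could hardly adjust them. Reh_PMA still exceeded the mean of the cHL cell lines by 0.56 (SE 0.15, limma adjusted p = 0.0125), a call lost without Reh_PMA 0 (0.40). It did not differ beyond the spread from KM-H2, the cHL line that had detectable CBFA2T3 (0.25, SE 0.19, limma adjusted p = 0.305).

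CBFA2T2, a widely expressed ETO protein, was detected in all 12 libraries (chr20:32077881-32237842, GRCh37, plus strand). Its FPKM was 8.17 and 9.52 in L1236, 3.35 and 4.02 in KM-H2, 2.89 and 4.02 in L428, 3.40 and 3.09 in Namalwa, 3.59 and 3.21 in Reh and 1.54 and 1.58 in Reh_PMA. L1236 stood above and Reh_PMA below all other libraries, and the remaining groups overlapped. L1236 exceeded the controls by 1.19 (SE 0.17, limma adjusted p = 0.000463), while L428 differed by 0.03 (SE 0.17) and KM-H2 by 0.11 (SE 0.17). The difference of 0.44 (SE 0.13, limma adjusted p = 0.0160) for the cHL cell lines as a set therefore came with 1 line that stood apart, and it was lost without Namalwa 1 (0.42) or Reh 1 (0.41) and with equal totals (0.40, limma adjusted p = 0.0864). The mean of Reh_PMA was 2.18-fold below that of Reh (-0.78, SE 0.20, limma adjusted p = 0.0170), and with the term for the 4 libraries the difference was -1.06 (limma adjusted p = 0.0218). This call was lost when any 1 Reh or Reh_PMA library was left out (-0.84 to -0.72) and with equal totals (-0.74, limma adjusted p = 0.0806).

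RUNX1T1, the founding ETO gene and the partner of RUNX1 in a fusion of myeloid leukaemia, was below 1 FPKM everywhere. It was at 0.942 and 0.301 in Namalwa, 0.262 and 0.198 in KM-H2, 0.0468 and 0.00623 in L1236, 0 and 0.0420 in L428, and 0 in all Reh and Reh_PMA libraries. These values lie where few reads decide the level, and no test is given. The sum of the ETO genes was 8.95 ± 1.86 FPKM in Reh (SD, n = 2), 8.87 ± 0.926 in L1236, 5.79 ± 0.806 in Namalwa, 4.30 ± 0.532 in KM-H2, 3.48 ± 0.830 in L428 and 2.21 ± 0.217 in Reh_PMA. CBFA2T3 was 61.5% ± 5.03 of it in Reh, 33.4% ± 2.38 in Namalwa, 29.0% ± 8.37 in Reh_PMA and 8.90% ± 1.24 in KM-H2. The sums of Reh and L1236 overlapped, although L1236 held CBFA2T2 in place of CBFA2T3.

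Ordering the 6 groups by mean level gave 5 steps between neighbours for each of the 7 tested genes, and 10 of these 35 steps passed the limma test. RUNX1 had none in this fit, and 3 with a replicate block by column suffix (Reh to L428, L428 to Namalwa and KM-H2 to L1236, limma adjusted p = 0.0259, 0.0484 and 0.0381), a block that the labels do not tie to shared cultures. The number of called steps was 13 with the block and 7 with the term for the 4 libraries, without L1236 1 and L428 1, or with equal totals. For RUNX2 the steps from L428 to L1236 (a pair of groups in which 30.6% of tested genes were called) and from KM-H2 to Namalwa (40.6%) were called, and for RUNX3 those from KM-H2 to L428 (36.4%) and from Namalwa to Reh (25.1%). CBFB had a step from Reh_PMA to Reh (31.8%) and ETV6 from L1236 to Reh (40.7%). CBFA2T2 had steps from L1236 to KM-H2 (36.2%) and from Namalwa to Reh_PMA (41.6%), and CBFA2T3 from Reh to Namalwa and from Namalwa to Reh_PMA.

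Across the comparisons, the test called 7 of the 7 genes between cHL and control cell lines, where 55.4% of all tested genes were called (29.6% higher, 25.8% lower). Of these, RUNX2, RUNX3, ETV6 and CBFA2T2 were higher and RUNX1, CBFB and CBFA2T3 lower. RUNX2 passed the low-value filter through the cHL cell lines and CBFA2T3 through the controls, so their presence among the tested genes already implied a difference in level. The median difference of the 7 genes was 0.44, against 0.02 over all tested genes. RUNX2 and CBFA2T3 were the genes whose cHL and control libraries did not overlap, which was the case for 17.6% of tested genes (9.50% higher, 8.06% lower). In an exact two-sided permutation test of 3 against 2 line means, which cannot go below p = 0.1, RUNX3 and CBFA2T3 reached 0.1, RUNX2 and CBFB 0.2, RUNX1 and ETV6 0.4, and CBFA2T2 0.5. The limma p-values thus speak of these 5 lines and the spread between their duplicates.

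Against the same controls, 5 of the 7 genes were called for L428 (background 46.9%), 6 for L1236 (45.4%) and 4 for KM-H2 (47.1%). Those of CBFB (-0.55) and ETV6 (1.32) for L428 were lost without the filter, with equal totals, with the term, and without L1236 1 and L428 1, and that of CBFB for L1236 (-0.71) under the last 3 of these. The CBFB call for L428 was also lost when any 1 library of L428, Namalwa, Reh or Reh_PMA was left out (-0.60 to -0.51) and that for L1236 without L1236 1 (-0.53) or Reh 0 (-0.66). The ETV6 call for L428 was lost without L428 1 (0.86, limma adjusted p = 0.232), Namalwa 1 (1.09) or Reh 1 (1.26). Between Namalwa and Reh 4 were called (25.1%, or 10.3% higher and 14.7% lower), with RUNX3 and ETV6 higher and RUNX1 and CBFA2T3 lower in Namalwa. PMA treatment of Reh gave 3 calls of 7, CBFB higher and CBFA2T2 and CBFA2T3 lower, where 31.8% of tested genes were called (14.7% higher, 17.2% lower). The PMA and untreated Reh libraries of CBFB, ETV6, CBFA2T2 and CBFA2T3 did not overlap, as for 72.0% of tested genes. Between Reh_PMA and the cHL cell lines all 7 were called (58.1%, or 25.9% higher and 32.2% lower), with an all-gene median of -0.11. RUNX2 is among them although it was tested only because of its level in the cHL cell lines, so its call is a description. RUNX1 (2.31, SE 0.35) and CBFB (1.29, SE 0.19) were higher in Reh_PMA, as was CBFA2T3, and RUNX2 (-3.37, SE 0.32), RUNX3 (-3.70, SE 0.27), ETV6 (-2.57, SE 0.39) and CBFA2T2 (-1.20, SE 0.16) were lower. These comparisons share libraries and are not independent of each other. The size of differences for genes near 0 depends on the pseudocount, and with 0.1 in place of 1 the cHL difference was -4.31 for CBFA2T3, 5.50 for RUNX2 and 3.96 for RUNX3, and the PMA difference of ETV6 was -0.92.

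**Figure D3:**
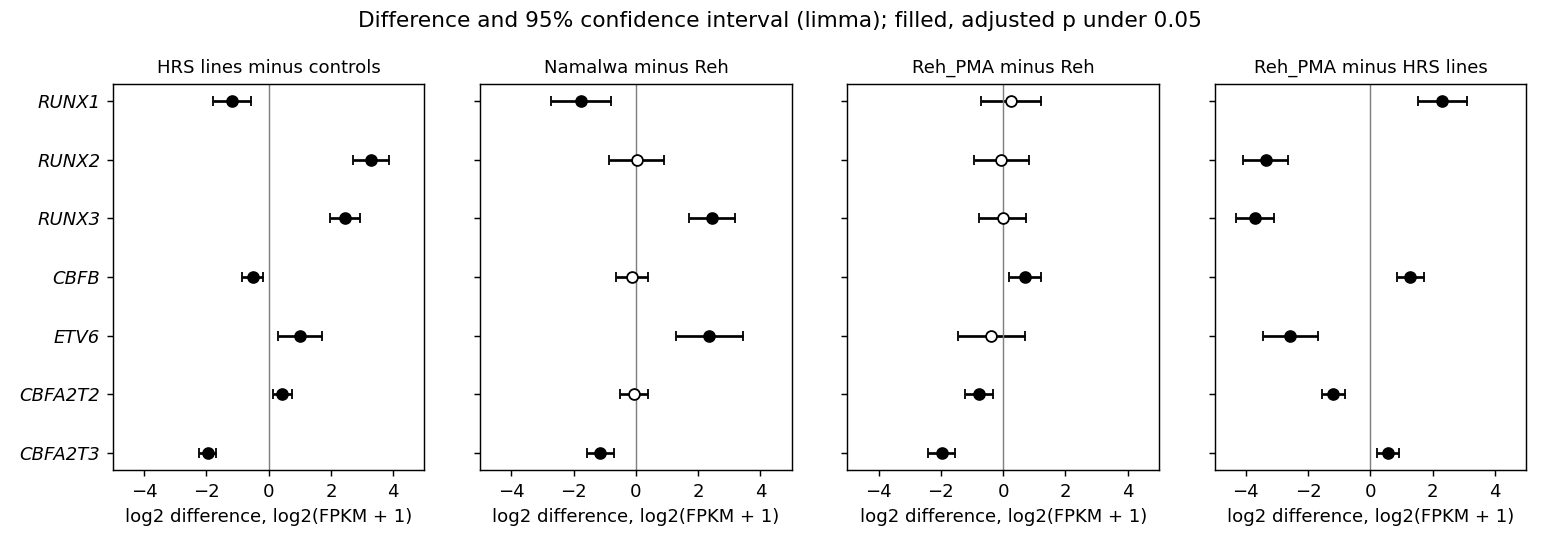
Log2 difference on the log2(FPKM + 1) scale (horizontal axis) with its 95% confidence interval from limma, for 7 genes in 4 comparisons. Filled points have an adjusted p under 0.05, as for all 7 genes between cHL (HRS) lines and controls and for CBFB, CBFA2T2 and CBFA2T3 after PMA.

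The gene lists below met the same limit of the low-value filter. LYL1, LMO2, SPI1, ERG, BIRC7 and DSC3 were below 1 FPKM in every cHL library but not in every control library, as were 4.76% of all tested genes. WWTR1, SPIC, CSF1R, CSF2 and GZMB were below 1 FPKM in every control library but not in every cHL library (13.2%). Their presence among the tested genes thus already implied a difference in level, and the counts and medians of their lists include them. In the same way LMO2 passed through untreated Reh alone (as did 1.78% of tested genes) and GZMB through Reh_PMA alone (1.61%), while these 2 genes, ERG, MPO, BIRC7 and DSC3 passed through Reh and Reh_PMA together (5.14%), and RUNX2, TLE2, WWTR1, SPIC, CSF2 and ITGAL through the cHL cell lines alone (14.1%). In comparisons of those groups with others their differences are descriptions.

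Genes of the complexes that bring CBFA2T3 to DNA were examined as a list of 12. TAL1, GATA1 and GATA2 fell below the filter, and of the 9 tested 7 were lower and none higher in the cHL cell lines (median difference -1.41, all genes 0.02), where 25.8% of all tested genes were lower. LYL1, a basic helix-loop-helix factor closely related to TAL1, was at 83.0 and 78.8 FPKM in Reh and 4.16 and 7.18 in Namalwa, and at 0 in 5 of 6 cHL libraries with 0.0921 in L428 1. Its difference was -4.51 (SE 0.15), a description, as LYL1 was tested only because of its level outside the cHL cell lines. LMO2, which bridges such factors, was lower by -1.67 (SE 0.21) and the E protein TCF3 by -1.51 (SE 0.15). LMO2 was at 0.183 FPKM or below in Namalwa too, so its difference rests on Reh.

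After PMA, 6 of these 9 genes were lower and 1 higher (median -0.83, all genes -0.03), where 17.2% of all tested genes were lower and 14.7% higher. SSBP2, which stabilises LDB1 complexes, went from 66.5 and 61.7 FPKM to 11.2 and 7.93 (-2.64, SE 0.27, limma adjusted p = 0.000167). LMO2, which was tested only because of its level in untreated Reh, was at 7.17 and 9.90 there and at 0.547 and 2.46 after PMA (-2.03), and is 1 of the 6. TCF3 fell from 142 and 108 to 51.7 and 44.8 (-1.35, SE 0.23, limma adjusted p = 0.00278). LYL1 was at 58.7 and 67.0 and its difference missed the threshold (-0.36, SE 0.23). With the term for the 4 libraries 5 of the 9 were lower and none higher. That fit called 2897 of the 14679 tested genes, against 4675 without the term, and 46.6% of its calls were higher. SSBP2 (-2.82) and TCF3 (-0.99) remained called with the term (LMO2 -2.07) while LYL1 (-0.42) did not pass. Between Namalwa and Reh 4 were lower and 1 higher in Namalwa (14.7% and 10.3% of all tested genes), among them LYL1 (-3.66, SE 0.23) and SSBP2 (-2.06, SE 0.27), and LMO2 (-3.12), for which Reh again decided the test.

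**Figure D4:**
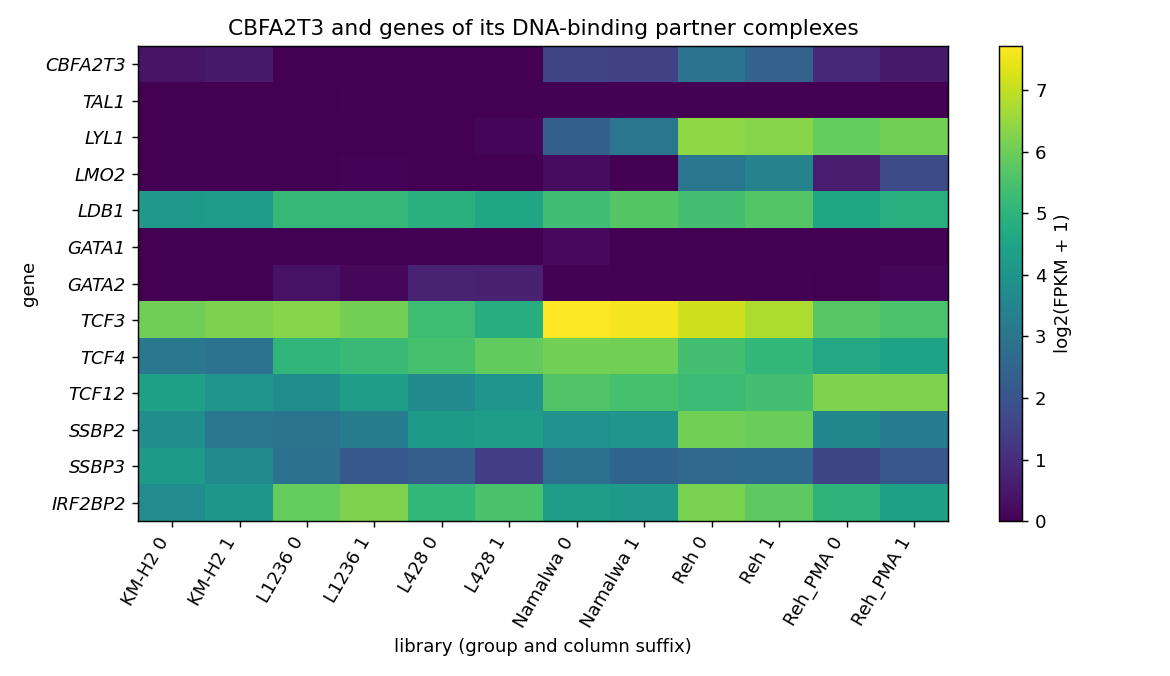
Level of CBFA2T3 and 12 genes of its partner complexes (rows) as log2(FPKM + 1) (colour, from 0) in the 12 libraries (columns). LYL1 is bright in Reh and Reh_PMA, at 4.16 and 7.18 FPKM in Namalwa and at or near 0 in the cHL cell lines, and TAL1 and GATA1 are dark throughout.

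The corepressor complex was examined as 11 genes for NCoR, SIN3 and histone deacetylase subunits and ZNF652. In the cHL cell lines 3 were higher and 1 lower (median -0.15), where 29.6% of all tested genes were higher and 25.8% lower. Among the higher ones were SIN3A (0.82, SE 0.27) and HDAC3 (0.59, SE 0.15), and HDAC2 was lower (-0.68, SE 0.13). HDAC3 was at 116 and 123 FPKM in L1236 and between 28.3 and 37.0 in KM-H2 and L428, close to the controls at 28.1 to 38.1. By line, 1 was higher and 0 lower in L428, 2 and 2 in L1236, and 1 and 4 in KM-H2, where 46.9%, 45.4% and 47.1% of all tested genes were called. The median difference from the controls was 0.07 for L428, -0.05 for L1236 and -0.07 for KM-H2. Without L1236 1 and L428 1, which leaves 1 library in each of these groups, it was 0.03, 0.07 and -0.07. For the cHL cell lines as a set it was then -0.19. With the term 2 were higher and 1 lower for this set, where 7759 of the 14679 tested genes were called. After PMA 1 gene of the 11 was called (median 0.37, 31.8% of all tested genes called). The fit with the term called 2897 of the 14679 tested genes after PMA, and there 1 of the 11 was higher and 1 lower. In both fits the lower one was ZNF652, a zinc-finger protein that binds ETO proteins, from 10.4 and 7.85 to 1.64 and 2.46 (-1.74, SE 0.22, limma adjusted p = 0.000617, or -1.94 with the term). Between Namalwa and Reh, GPS2 (-0.80, SE 0.23) and NCOR1 (-0.80, SE 0.24) were lower in Namalwa.

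Among 13 tested RUNX cofactors (YAP1 fell below the filter), 3 were higher and 7 lower in the cHL cell lines (median -0.60), where 29.6% of all tested genes were higher and 25.8% lower. After PMA 2 were higher and 2 lower in both fits, with a median of 0.19, or 0.39 with the term. Without the term 31.8% of the 14679 tested genes were called, and with it 2897 of them. TLE1, a Groucho corepressor bound by RUNX proteins, was at 41.6 and 31.9 FPKM in Reh, 4.76 and 7.65 in Reh_PMA and at most 5.98 elsewhere. It was lower after PMA by -2.41 (SE 0.28) and lower in Namalwa by -4.88 (SE 0.28). Its relative TLE4 moved in the other direction with PMA, from 8.14 and 6.31 to 25.2 and 23.1 (1.62, SE 0.21, limma adjusted p = 0.000639), and was lower in the cHL cell lines (-1.23, SE 0.14). MYB, a transcription factor of blood progenitors, was lower after PMA (-3.19, SE 0.53). These 3 PMA calls also held with the term (TLE1 -2.04, TLE4 1.67, MYB -3.75). WWTR1 (TAZ), a coactivator, was at 7.92 and 10.8 in L1236 and 3.10 and 2.26 in KM-H2, and at 0.0764 or below in L428 and the controls.

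Of 16 other ETS-family genes tested beside ETV6, 3 were higher and 8 lower in the cHL cell lines (median -0.42), where 55.4% of all tested genes were called and 25.8% were lower. SPI1 (PU.1) was at 0 in all 6 cHL libraries and at 22.4 to 33.8 FPKM in the controls (-4.87, SE 0.11), and ELF1 was lower by -3.11 (SE 0.21). ERG was at 145 and 108 in Reh and at 0.121 or below in Namalwa and the cHL cell lines, so its difference of -3.45 (SE 0.12) rests on Reh. After PMA 3 were higher and 6 lower (median -0.34, 31.8% of all tested genes called), or 0 and 5 with the term for the 4 libraries, where the median turned to 0.05. The fit with the term called 2897 of the 14679 tested genes after PMA. ERG fell to 3.62 and 3.25 (-4.83, SE 0.19, limma adjusted p = 8.74e-07), ETS2 fell by 2.39 (SE 0.28) on the log2 scale, and ETV7, the closest relative of ETV6, by 1.27 (SE 0.39). ETS2 (-2.63) and ETV7 (-2.13) were called with the term too. ERG was at -4.84 with it, but ERG was at or near 0 in L1236 and L428, so the term could not adjust it. ETS1 was higher in Namalwa than in Reh (2.46, SE 0.42).

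Known RUNX target genes moved in both directions. Of 11 tested (IL3 and ELANE fell below the filter), 3 were higher and 7 lower in the cHL cell lines (median -1.36), where 29.6% of all tested genes were higher and 25.8% lower. In the PMA comparison, in which 31.8% of all tested genes were called, 3 were higher and 5 lower (median -0.06), or 2 and 4 with the term for the 4 libraries (median -0.34). The latter fit called 2897 of the 14679 tested genes in that comparison. CD79A, a B-cell receptor chain, was lower (-7.48, SE 0.33), and CSF2, which encodes GM-CSF, was higher in the cHL cell lines (4.16, SE 0.34), at 0 in all 4 control libraries. CSF1R, the receptor of CSF1, rose after PMA from 0.285 and 0.202 FPKM to 11.8 and 11.2 (3.33, SE 0.21, limma adjusted p = 1.02e-05), and CDKN1A, a cell cycle inhibitor, from 35.9 and 74.1 to 328 and 286 (2.54, SE 0.34). BLK, a B-cell kinase, fell from 9.32 and 11.1 to 0.910 and 1.97 (-2.23, SE 0.24). The term left these 3 called (CSF1R 3.61, CDKN1A 2.21, BLK -2.13). ITGA4 (-2.56, SE 0.20) was lower and BLK (2.62, SE 0.24) higher in Namalwa than in Reh, and MPO, which passed the filter through the Reh line, differed by -4.87.

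Finally, 6 genes linked with ETV6-RUNX1 leukaemia were examined. BIRC7, an apoptosis inhibitor, was at 20.3 and 32.4 FPKM in Reh and at 0.0378 or below in Namalwa and the cHL cell lines, and CLIC5, an intracellular channel protein, was at 14.7 and 15.7 in Reh, 0 in Namalwa and 3.52 or below in the cHL cell lines. Both rose after PMA, to 513 and 550 (4.32, SE 0.22, limma adjusted p = 4.03e-06) and to 221 and 326 (4.05, SE 0.24, limma adjusted p = 8.42e-06). TCFL5 fell (-1.92, SE 0.26), and the other 3 genes were not called (31.8% of all tested genes called). With the term CLIC5 (4.23) was higher and TCFL5 (-2.08) lower as well. BIRC7 was at 4.29 with it, but BIRC7 was at or near 0 in L1236 and L428, so the term could not adjust it. In Namalwa 4 of the 6 were lower than in Reh and none higher (14.7% of all tested genes lower), but BIRC7 and DSC3, counted there, were tested only because of their level in Reh and Reh_PMA. In the cHL cell lines 5 were lower than in the controls and none higher (25.8% lower), among them TCFL5 (-1.79, SE 0.16) and IGF2BP1 (-1.71, SE 0.15). BIRC7 and CLIC5 were at 0.0378 FPKM or below in Namalwa, so their differences from the controls rest on Reh.

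Genes whose pattern over the 6 group means was most like that of CBFA2T3 were FAM69B (Pearson r = 0.999), RAP1GAP2 (0.993) and RCC1 (0.989). FAM69B had a mean of 13.2 FPKM in Reh, 4.43 in Namalwa, 1.62 in Reh_PMA and 0.270 to 1.15 in the cHL cell lines. For ETV6 they were ZDHHC14 (0.997), TSNARE1 (0.992) and TAGLN2 (0.991). TAGLN2, an actin-binding protein, had means of 244 to 358 FPKM in the cHL cell lines and Namalwa but 0.171 in Reh and 0.103 in Reh_PMA. For RUNX1 they were COPS3 (0.994), ZNF548 (0.988) and ZBED5 (0.983), and for RUNX3 TMEM63C, WHAMMP2 and IPP (0.994 each). These correlations describe 6 points that share a normalisation and were the highest among all tested genes.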

How the data were processed

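Stranded, ribosomal RNA-depleted total RNA libraries were made in duplicate by the authors and sequenced on more than 1 Illumina instrument model, not stated per library. The authors deposited 1 table of FPKM values (fragments per length of transcript and per mapped fragments of the library, normalised between libraries). The submitters' processing notes name TopHat2 2.0.11, Cuffnorm 2.2.1 and the hg19 build, and the gene annotation is not given in the sources used here. FPKM holds no read counts, so no count model was used and depth is unknown. Columns carry the group name and a suffix (0 or 1) that matches no replicate number in the labels, so each was assigned to its group, with 0 columns left without one. The labels do not say that duplicates came from separate cultures, and p-values then measure only the spread between these libraries.

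Values were tested as log2(FPKM + 1) with limma 3.58.1 (R 4.3.3, trend, 12 libraries and 6 groups in 1 fit, 6 residual degrees of freedom) over genes with an FPKM of at least 1 in 2 or more libraries. Benjamini-Hochberg adjustment ran over all 14679 genes, with calls at an adjusted p under 0.05, two-sided. The code was tested on simulated data. HRS lines and controls were weighted equally by line. Gene positions are from GENCODE on GRCh37, the same assembly as hg19, and promoters from RefSeq on GRCh38.p14, with no conversion between them. All 8 genes are named with their values, and other genes were named from fixed lists, up to the 3 called genes with the largest difference per list and comparison and those below the filter, or by likeness (the 3 highest Pearson r over group means for 4 genes). The genes and lists were chosen with earlier results of these data known. Alternatives changed the pseudocount, filter, scaling, samples in the fit, trend, block and fold limit, and left out each library.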

Additional observations from a re-analysis of the deposited data

Results flagged for a closer look

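The 3 cHL cell lines differed from each other in their distance from the same controls, which amounts to the difference between the lines, tested here with limma. CBFA2T2 was lower in KM-H2 than in L1236 by a log2 difference of -1.07 and higher in L1236 than in L428 by 1.15 (limma adjusted p = 0.00256 and 0.00218). RUNX2 was lower in KM-H2 than in L428 by -4.01 and lower in L1236 than in L428 by -3.92 (limma adjusted p = 5.31e-05 and 7.42e-05). RUNX3 was higher in KM-H2 than in L428 by 1.02 and higher in L1236 than in L428 by 1.74 (limma adjusted p = 0.0371 and 0.00359). RUNX1 was lower in L1236 than in L428 by -2.09 (limma adjusted p = 0.00523).

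The RUNX3 difference between KM-H2 and L428 missed the threshold with the term for the 4 libraries at 0 for BCYRN1 (0.85, limma adjusted p = 0.104) and without L1236 1 and L428 1 (1.11, limma adjusted p = 0.0589). The RUNX1 difference between L1236 and L428 was called with that term (limma adjusted p = 0.00476) and missed the threshold without the 2 libraries (-1.92, limma adjusted p = 0.102). The other 5 differences were called under both settings. Groups of 2 do not allow a test for single outlying libraries.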

How the results depend on the processing

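No difference of the 7 genes that was called changed direction under any alternative. Scaling all libraries to equal totals reduced the number of the 7 genes called to 1 after PMA, 4 between cHL and control cell lines and 3 for L428 (lost were CBFB and CBFA2T2 after PMA, CBFB, ETV6 and CBFA2T2 between cHL and control cell lines, and CBFB and ETV6 for L428), and lowered the genes called after PMA from 4675 to 3030. This scaling moved the median difference of all genes from -0.01 to -0.20 for L428 and from -0.11 to 0.0014 between Reh_PMA and the cHL cell lines. Requiring a 2-fold difference left 1 of the 7 after PMA, and 3614 genes called between cHL and control cell lines, 4404 for L428, 4251 for L1236, 4456 for KM-H2 and 5124 between Reh_PMA and the cHL cell lines. Without the low-value filter, with the term for the 4 libraries at 0 for BCYRN1, or without L1236 1 and L428 1, 3 of the 7 were called for L428. With the term, 2897 genes were called after PMA. A fit of only Namalwa and Reh called 2 of the 7 (RUNX3 and ETV6). Leaving out 1 library at a time gave 1 to 3 of the 7 and 2401 to 4988 genes after PMA, 4 to 7 of the 7 between cHL and control cell lines (fewest without Namalwa 1), 3 to 5 for L428 (3 without L428 1, Namalwa 1 or Reh 1), and 2346 to 3933 genes between Namalwa and Reh (fewest without Reh 0). For the 49 differences of the 7 genes, 549 leave-one-out values were on the same side of the threshold, 37 lost a call and 2 gained one. A replicate block by column suffix changed no call of the 7 genes in the 7 comparisons and gave 3 calls after PMA and 7 between cHL and control cell lines, with 5115 and 8423 genes. Called steps between neighbouring groups numbered 10, 13 with the block (the 3 added were of RUNX1), 8 without the filter, and 7 with the term, without L1236 1 and L428 1, with equal totals, with only the compared groups or with the 2-fold limit, and 7 to 11 with 1 library left out. Correlations of same-suffix deviations between groups ranged from -0.045 to 0.681, over 0.1 in 6 of 15 pairs, including the 3 pairs of cHL cell lines. As they were not over 0.1 in every pair and no label ties the suffixes, the block was kept as an alternative. Depth limits values near 0, where RUNX1T1, RUNX2 in the controls and CBFA2T3 in the cHL cell lines lie.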
